A study of Mus musculus with 9 samples.

Results

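Expression of the collagen genes was examined in left ventricular RNA of C57BL6J mice aged 16 weeks, 5 libraries labelled VDAC2 WT and 4 labelled VDAC2 KO. Members were chosen by symbol alone (Col, a type number, the letter a and a chain number), which took 44 of the 52636 genes of the count table: 11 fibrillar chains, 8 chains of basement membranes and 25 others. In the study, KO mice are *Vdac2* flox/flox animals with αMHC-Cre, a transgene active in cardiomyocytes, so that fibroblasts, vessels and macrophages of the ventricle keep the intact gene. WT mice are littermates that carry either the floxed allele or Cre, and the labels do not say which. Libraries are numbered as in the labels, 1 to 5 for WT and 6 to 9 for KO. Nothing in the labels says that the libraries of a label are separate animals, so p-values measure the spread between these samples.

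Collagens are triple helices of interwound chains that are assembled in the endoplasmic reticulum with the help of dedicated hydroxylases and chaperones, trimmed outside the cell and cross-linked by lysyl oxidases. Fibrillar collagens, chiefly types I, III and V in the heart, form the banded fibrils of the interstitium and are made mainly by fibroblasts. Type IV collagen forms the sheet-like network of the basement membranes that surround cardiomyocytes and capillaries. The remaining types decorate fibrils, form beaded filaments (type VI) or short-chain networks (type VIII), or sit in cell membranes. In bulk tissue, fewer cells of a type and less RNA per cell cannot be told apart.

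The level of *Vdac2* (CPM, counts scaled to the size of each library) followed the labels in libraries 2, 4, 7 and 9. It went against them in 1 and 5 (labelled WT, low) and in 6 and 8 (labelled KO, high), and library 3, labelled WT, lay between. It was 20.2, 366, 58.5, 365 and 21.3 CPM in libraries 1 to 5 and 384, 20.5, 421 and 19.1 CPM in 6 to 9. The libraries are therefore called "labelled WT" and "labelled KO", and no library was given a genotype from its *Vdac2* level. Every test below is between the deposited labels, except the outlier check within a label near the end. Libraries 1, 5, 7 and 9 (under 100 CPM, here the low-*Vdac2* libraries) and libraries 2, 4, 6 and 8 (over 300 CPM, the high-*Vdac2* libraries) were selected on a measured value, so their collagen values are set side by side as a description, with no test, and each set holds 2 libraries of each label.

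Depth ran from 27345052 to 44673988 counts per library. Library 3, labelled WT, stood apart from the other 8 and is shown apart. Its mitochondrially encoded genes took 9.07% of counts, against 16.8% to 19.2%, and its summed cardiomyocyte markers (12 genes, all tested) were at 58449 CPM against 156972 to 196587 CPM. Its summed markers of activated fibroblasts (10 genes, all tested) were at 6017 CPM against 324 to 992 CPM, those of macrophages at 1969 CPM against 385 to 886 CPM, and those of resting fibroblasts at 1210 CPM against 2191 to 2976 CPM. Vessel markers were lower too, with summed endothelial markers at 729 CPM against 1196 to 1634 CPM (10 of 11 genes lowest in library 3) and summed mural markers at 755 CPM against 1467 to 1982 CPM, though 5 of 9 mural genes were highest and 4 lowest there. The resting fibroblast genes were mixed, with 5 of 11 lowest in library 3 (among them *Gsn*, at 252 CPM against 1199 to 1507 CPM) and 4 highest (*Pdgfra*, *Tcf21*, *Ddr2* and *Mfap4*). The study states that a WT sample was removed from its RNA sequencing for poor RNA quality and does not name it. *Myl2*, a ventricular myosin light chain, was at 1984 CPM in library 3 and at 8597 to 11375 CPM elsewhere, and of 5 atrial markers, *Sln* was under 4 counts in every library while the other 4 were highest in library 3 (summed atrial markers 3359 CPM, against 78.7 to 1533 CPM, nearly all from *Nppa*). The study counts *Nppa* among the hallmarks of dilated cardiomyopathy. The atrial light chain gene *Myl7* was scarce, at 1.13 CPM in library 3 and 0.115 to 1.08 CPM elsewhere. The libraries labelled WT were sequenced on one lane and those labelled KO on another, and *Ddx3y* of the Y chromosome was at 126 to 170 CPM in the labelled WT and at 0 to 0.0264 CPM in the labelled KO libraries. Lane, sex and label therefore cannot be told apart.

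Between the deposited labels, none of the 33 collagens that passed the expression filter was called in either direction (edgeR's quasi-likelihood test, adjusted p under 0.05). The lowest adjusted p among them was 0.679, and 0 of 33 had an unadjusted p under 0.05, against 6.11% of all tested genes. DESeq2 gave a p-value for 24 of the 33 and called 0 of these (lowest adjusted p 0.815, 0 with an unadjusted p under 0.05), but gave none for the other 9 (*Col3a1*, *Col1a2*, *Col5a2*, *Col1a1*, *Col5a1*, *Col8a1*, *Col8a2*, *Col12a1* and *Col16a1*), so that it tested none of the chains with the largest estimates. Over all genes, 9 of 16322 were called (0.0551%). By edgeR estimates, fibrillar collagens had a median log2 fold change (labelled KO minus labelled WT) of -1.32 over 8 tested chains, with 6 of the 8 lower in the labelled KO libraries, basement membrane collagens -0.24 over 8, other collagens -0.03 over 17, and all tested genes -0.02. Library 3 decided the fibrillar value: without it the medians were 0.06, -0.01, 0.14 and 0.00, and 7 of 8 fibrillar estimates were on the higher side. Without library 3 again no collagen was called, the lowest adjusted p was 0.093 (*Col27a1*, a minor fibrillar chain, log2 fold change 0.55, and 0.07, SE 0.36, with all 9 libraries), and 62 genes were called over all (0.382%). An unadjusted p under 0.05 was then found for 5 of 33 collagens (15.2%) and for 11.8% of all tested genes. The tests with and without library 3 are shown side by side in the plot of fold changes between labels.

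**Figure D1:**
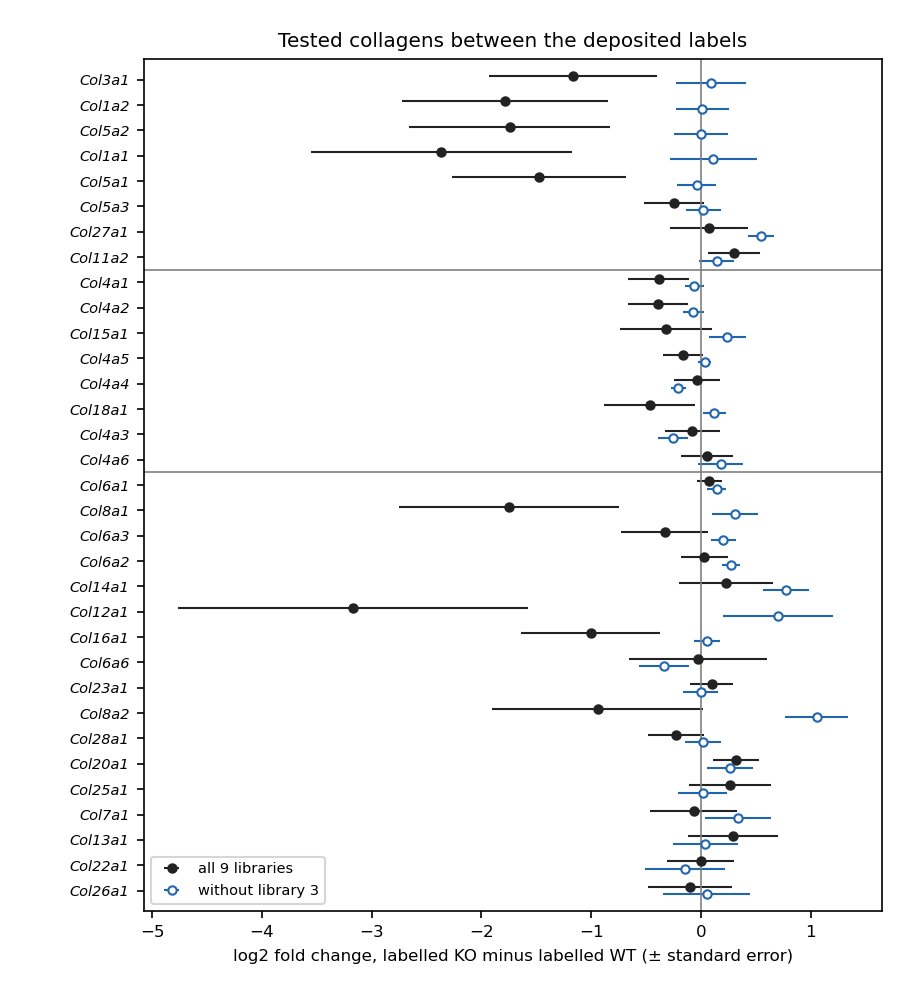
Log2 fold change of the 33 tested collagens, labelled KO minus labelled WT (horizontal axis, point and standard error), with all 9 libraries (filled) and without library 3 (open); lines part fibrillar, basement membrane and other collagens. *Col12a1* moved from -3.17 to 0.70 and *Col1a1* from -2.37 to 0.11 when library 3 was left out, and no collagen passed the test in either fit.

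*Col3a1* encodes the single chain of type III collagen, the thin, pliable fibrils of the cardiac interstitium, and lies on chromosome 1 (GRCm38, chr1:45311538-45349706, plus strand). It was at 656, 384, 4267, 415 and 673 CPM in libraries 1 to 5, then 437, 778, 318 and 746 CPM in 6 to 9. Apart from library 3, the low-*Vdac2* libraries lay at 656 to 778 CPM and the high-*Vdac2* libraries at 318 to 437 CPM, with no overlap under either label. The labelled groups overlapped (labelled WT, mean 1279 ± 1676 CPM, SD, n = 5; labelled KO, 570 ± 227 CPM, SD, n = 4). The edgeR estimate of the log2 fold change was -1.17 (SE 0.77, adjusted p 0.679) and of 0.09 (SE 0.32, adjusted p 0.935) without library 3. The 100 bases upstream of its annotated start are shown because *Col3a1* had the highest mean collagen level per length, although *Col4a1* was above it in the 4 high-*Vdac2* libraries when exon union lengths were used (RefSeq start, GRCm38.p6, chr1:45311438-45311537, plus strand, no annotated exon base).
Col3a1 upstream: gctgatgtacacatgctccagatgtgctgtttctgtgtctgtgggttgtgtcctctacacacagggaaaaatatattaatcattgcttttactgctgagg

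Type I collagen, the stiff main fibril of scar and tendon, is built from chains encoded by *Col1a1* (GRCm38, chr11:94936224-94953042) and *Col1a2* (chr6:4504814-4541544). *Col1a2* was at 121, 90.4, 1412, 85.9 and 121 CPM in libraries 1 to 5, then 88.6, 153, 67.6 and 115 CPM in 6 to 9. Its low-*Vdac2* libraries lay at 115 to 153 CPM, above the 67.6 to 90.4 CPM of the high-*Vdac2* libraries. *Col1a1* was at 35.4, 22.7, 691, 22.2 and 34.8 CPM in libraries 1 to 5, then 28.2, 57.0, 15.5 and 24.4 CPM in 6 to 9. Here the order held within the labelled WT libraries but not within the labelled KO libraries, where library 9 (low) was below library 6 (high). Between labels the estimates were -1.79 (SE 0.94) for *Col1a2* and -2.37 (SE 1.19) for *Col1a1*, both with an adjusted p of 0.679 by edgeR, and 0.01 (SE 0.24) and 0.11 (SE 0.40) without library 3.

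Type V collagen is incorporated into type I fibrils and limits their diameter. *Col5a2*, which lies next to *Col3a1* on the opposite strand (GRCm38, chr1:45374321-45503282), was at 98.9, 66.1, 1076, 72.5 and 99 CPM in libraries 1 to 5, then 66.9, 101, 54.2 and 116 CPM in 6 to 9. As for its neighbour, the low-*Vdac2* libraries (98.9 to 116 CPM) did not overlap the high-*Vdac2* libraries (54.2 to 72.5 CPM). *Col5a1* was at 45.7, 37.6, 406, 38.9 and 47.1 CPM in libraries 1 to 5, then 39.5, 57.6, 29.2 and 39.3 CPM in 6 to 9, where the low and high libraries overlapped by library 9. *Col5a3*, the least abundant type V chain per length, was at 17.5, 16.5, 42.7, 22.6 and 26.4 CPM and at 24.4, 22.8, 20.4 and 17.2 CPM in the same order, with the low and high libraries mixed under both labels. The other fibrillar chains were scarce: *Col27a1* was at 3.04 to 4.99 CPM and *Col11a2* at 1.37 to 1.94 CPM in the 8 libraries apart from library 3, and *Col11a1*, *Col24a1* and *Col2a1* did not pass the filter, with at most 150, 38 and 3 counts in a library. The 150 counts of *Col11a1*, a cartilage-type chain, were in library 3, where it was at 4.05 CPM, against 0.0380 to 0.346 CPM in the others.

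**Figure D2:**
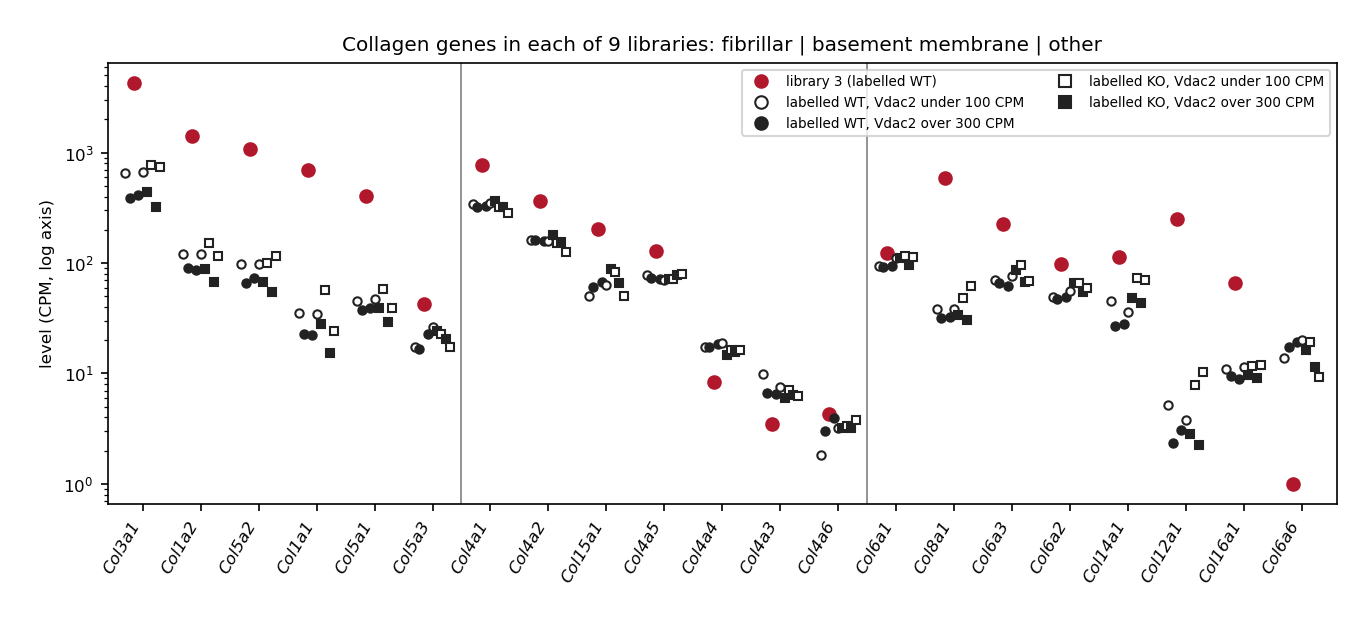
Level (CPM, log axis) in each of the 9 libraries of the 21 collagens with a mean of at least 10 CPM or of type IV; circles are labelled WT, squares labelled KO, open symbols *Vdac2* under 100 CPM, filled symbols over 300 CPM, and red is library 3. *Col3a1*, *Col1a2*, *Col5a2*, *Col8a1*, *Col12a1* and *Col16a1* have their open symbols above their filled ones, while *Col4a1* and *Col4a2* do not.

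Type IV collagen of nearly all basement membranes joins chains of *Col4a1* with those of *Col4a2*, which is transcribed head to head with it on chromosome 8. *Col4a1* was at 344, 322, 772, 331 and 347 CPM in libraries 1 to 5, then 366, 323, 323 and 285 CPM in 6 to 9. *Col4a2* was at 162, 163, 366, 158 and 159 CPM and at 181, 152, 156 and 127 CPM in the same order. Outside library 3 the spread was narrow, and the low-*Vdac2* and high-*Vdac2* libraries overlapped for both genes. The fold changes between labels were -0.38 (SE 0.28, adjusted p 0.692) and -0.39 (SE 0.28, adjusted p 0.686) by edgeR, and -0.06 (SE 0.08) and -0.07 (SE 0.10) without library 3. The first exons of the pair overlap by 22 bases on opposite strands, shown because reads there belong to one or the other only if strand was used in counting (GRCm38.p6, chr8:11312805-11312826, plus strand).
Col4a1 and Col4a2 shared exon bases: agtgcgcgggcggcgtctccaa

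The minor type IV chains, found in basement membranes of glomerulus, lung and smooth muscle, differed among themselves in library 3. *Col4a5* was at 77.9, 72.8, 129, 71.7 and 70.5 CPM in libraries 1 to 5, then 71.9, 71.6, 78.4 and 79.5 CPM in 6 to 9. *Col4a4* was at 17.5, 17.4, 8.39, 18.3 and 18.9 CPM and then at 14.7, 16.3, 15.7 and 16.1 CPM, and *Col4a3*, its head-to-head neighbour on chromosome 1, at 9.85, 6.69, 3.48, 6.51 and 7.50 CPM and then at 6.02, 7.04, 6.41 and 6.30 CPM. These were the only basement membrane chains with their lowest value in library 3. *Col4a6* was at 1.84, 2.998, 4.32, 3.96 and 3.17 CPM and then at 3.24, 3.35, 3.18 and 3.81 CPM, and per length it had the lowest mean of the type IV chains outside library 3 (0.400 CPM per kb). *Col15a1*, a proteoglycan collagen at the outer face of the basement membrane of muscle and capillaries, was at 50.2, 60.7, 205, 67.3 and 63.8 CPM and then at 88.1, 82.9, 65.4 and 50.7 CPM, and *Col18a1*, the precursor of endostatin, at 4.82 to 6.12 CPM outside library 3 and at 18.7 CPM in it. For all 8 basement membrane chains the low-*Vdac2* and high-*Vdac2* libraries overlapped.

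Type VI collagen forms beaded filaments between the basement membrane and the interstitium. *Col6a1* was at 94.8, 92.5, 123, 93.5 and 111 CPM in libraries 1 to 5, then 111, 115, 95.6 and 113 CPM in 6 to 9, and *Col6a2* at 49.7, 47.4, 97.4, 49.3 and 55.9 CPM and then at 66.4, 65.5, 54.3 and 59.0 CPM. *Col6a3* was at 70.7, 66.0, 225, 62.4 and 75.8 CPM and then at 85.7, 95.5, 68.0 and 69.1 CPM. *Col6a1* was only 1.19 times the median of the other 8 in library 3, the least of the abundant chains that were highest there. *Col6a6*, a later addition to the family, went the other way, with 13.7, 17.4, 0.998, 19.1 and 20.2 CPM and then 16.2, 19.2, 11.4 and 9.21 CPM.

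Type VIII collagen is a short-chain network of vessel walls and of remodelling tissue. *Col8a1* (GRCm38, chr16:57624258-57754737, minus strand) was at 38.0, 32.0, 593, 32.7 and 38.0 CPM in libraries 1 to 5, then 33.9, 48.4, 30.6 and 62.3 CPM in 6 to 9. The low-*Vdac2* libraries (38.0 to 62.3 CPM) were all above the high-*Vdac2* libraries (30.6 to 33.9 CPM). Its partner *Col8a2* was scarce (0.439 to 2.12 CPM, and 10.8 CPM in library 3), and its low-*Vdac2* libraries were above the high-*Vdac2* libraries within each label but not across both. The 100 bases before the *Col8a1* start are shown because they hold 3 copies of the GC box, in capitals (GGGCGG, read here as its reverse complement; RefSeq start, GRCm38.p6, chr16:57754738-57754837, minus strand, no annotated exon base).
Col8a1 upstream: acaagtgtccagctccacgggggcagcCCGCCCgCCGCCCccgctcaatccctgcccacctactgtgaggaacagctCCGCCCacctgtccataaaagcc

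Fibril-associated collagens bridge fibrils and the matrix around them. *Col12a1* (GRCm38, chr9:79598991-79718831) was at 5.19, 2.34, 249, 3.04 and 3.75 CPM in libraries 1 to 5, then 2.81, 7.83, 2.27 and 10.4 CPM in 6 to 9. Among the 8 libraries its highest value was library 9 and its lowest library 8, both labelled KO. *Col14a1* was at 44.8, 27.1, 114, 28.2 and 36.2 CPM and then at 48.6, 73.3, 43.3 and 69.6 CPM, and *Col16a1* at 10.9, 9.47, 65.3, 8.86 and 11.4 CPM and then at 9.60, 11.8, 9.06 and 11.9 CPM. For *Col14a1* both labels showed the low-*Vdac2* libraries higher, but the high-*Vdac2* labelled KO libraries (43.3 and 48.6 CPM) lay among or above the low-*Vdac2* labelled WT libraries (36.2 and 44.8 CPM). Its label estimate was 0.23 (SE 0.43, adjusted p 0.848 by edgeR) with all 9 libraries and 0.78 (SE 0.21, adjusted p 0.221) without library 3, neither of which passed the test. *Col20a1*, at 1.01 to 1.83 CPM in the 8 libraries, was the only tested collagen whose low-*Vdac2* libraries (1.01 to 1.24 CPM) all lay below the high-*Vdac2* libraries (1.26 to 1.83 CPM).

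The 3 transmembrane chains tested (*Col13a1*, *Col23a1* and *Col25a1*) were at 0.416 to 2.84 CPM, and *Col7a1*, *Col22a1*, *Col26a1* and *Col28a1* were at 0.131 to 1.71 CPM outside library 3. Besides the 3 fibrillar chains, 8 members did not pass the filter: *Col9a2* and *Col9a3* reached at most 12 counts in a library, *Col6a5* 9, *Col19a1* 6, *Col17a1* 5, and *Col6a4* and *Col10a1* 3, while *Col9a1* had 0 counts in every library. A count of 3 corresponded to 0.0693 to 0.114 CPM, and this floor covers counting error only.

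Set side by side over the 33 tested collagens, 6 (18.2%) had every low-*Vdac2* library above every high-*Vdac2* library, namely *Col3a1*, *Col1a2*, *Col5a2*, *Col8a1*, *Col12a1* and *Col16a1*, and 1 (*Col20a1*) had them all below. Over all tested genes these shares were 7.16% above and 4.93% below. By class, 3 of 8 fibrillar, 0 of 8 basement membrane and 3 of 17 other collagens were in the first set. Asked within each label alone, 9 of 33 were above in both labels (*Col6a1*, *Col14a1* and *Col8a2* beside the 6) against 11.3% of all tested genes, and 1 was below in both against 8.58%. These libraries were chosen by a measured level, so the counts are descriptions. Other genes moved with them: the summed markers of activated fibroblasts were at 588 to 992 CPM in the low-*Vdac2* and 324 to 443 CPM in the high-*Vdac2* libraries, with 4 of 10 markers separated (*Postn*, *Fn1*, *Tnc* and *Cthrc1*), and macrophage markers at 620 to 886 and 385 to 569 CPM, with 5 of 9 separated and 9 of 9 above within both labels. Summed endothelial markers overlapped, at 1196 to 1476 and 1435 to 1634 CPM, with 2 of 11 separated (*Pecam1* and *Flt1*, below) and 5 of 11 below within both labels. Summed mural markers overlapped at 1467 to 1895 and 1795 to 1982 CPM, with 1 of 9 separated (*Kcnj8*, below) and 2 of 9 below within both labels. Summed cardiomyocyte markers, mostly *Ttn*, lay at 156972 to 169374 and 178650 to 196587 CPM, with 3 of 12 separated (*Myl3*, *Ttn* and *Atp2a2*, all below) and 5 of 12 below within both labels. Summed atrial markers, mostly *Nppa*, lay at 162 to 1533 and 78.7 to 110 CPM, with 2 of 4 tested genes separated (*Nppa* and *Myl4*). *Myl4* was scarce, at 1.87 to 2.43 and 1.59 to 1.86 CPM, and *Myl7* overlapped at 0.115 to 1.08 and 0.183 to 1.03 CPM, as did *Dkk3*. The summed resting fibroblast markers overlapped, at 2693 to 2976 and 2191 to 2753 CPM, with 2 of 11 separated (*Tcf21* and *Dpt*) and 6 of 11 above within both labels. The part of these cells in the collagen values was not tested.

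**Figure D3:**
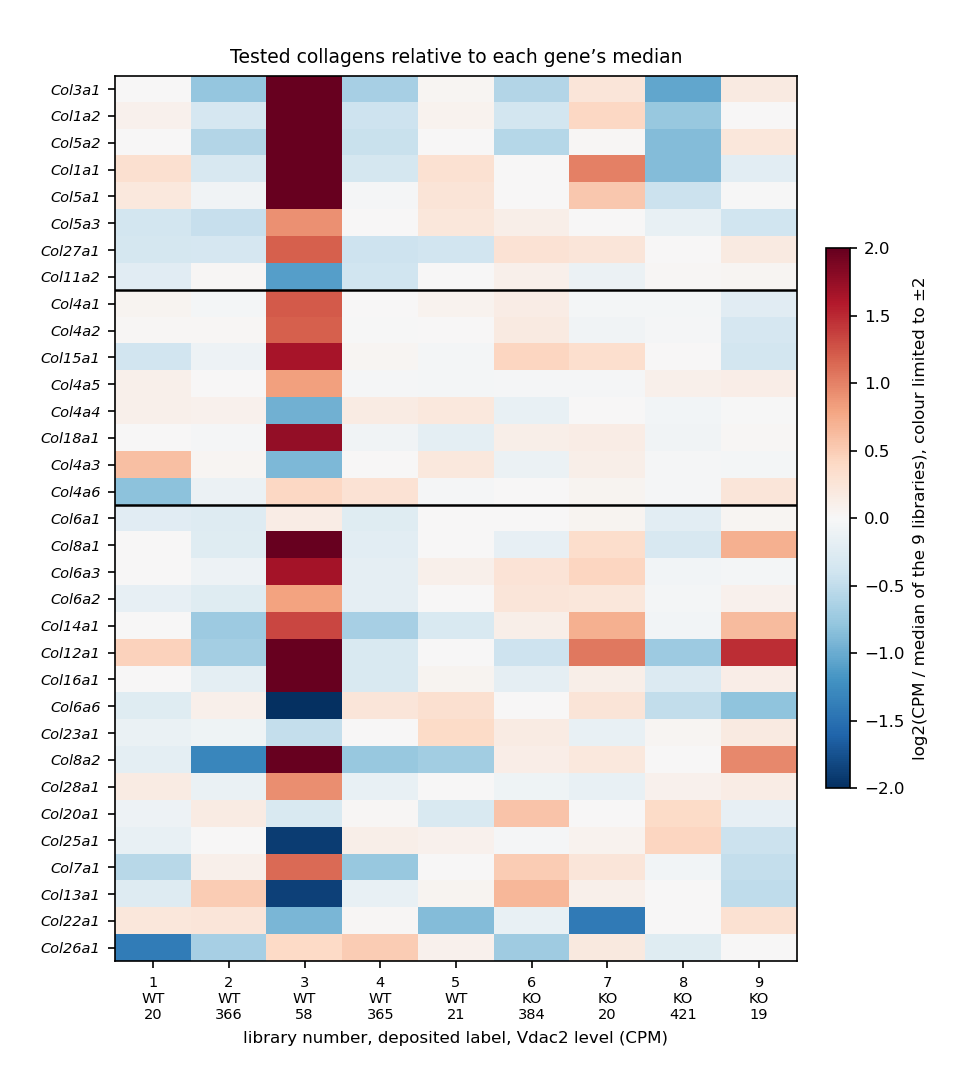
Each tested collagen (33 rows, in the order fibrillar, basement membrane, other) in each library (columns, with label and *Vdac2* level in CPM), as log2 of its CPM over its median of 9 libraries, with colour limited to 2 either way. Library 3 is dark red for *Col3a1*, *Col1a2*, *Col5a2*, *Col1a1*, *Col5a1*, *Col8a1*, *Col8a2*, *Col12a1* and *Col16a1* and dark blue for *Col6a6*, *Col13a1* and *Col25a1*.

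In library 3, 23 of the 33 tested collagens (69.7%) had their highest value and 8 (24.2%) their lowest, against 37.7% and 37.4% of all tested genes. The ratio of library 3 to the median of the other 8 was 73.2 for *Col12a1*, 26.2 for *Col1a1*, 16.5 for *Col8a1*, 13.8 for *Col1a2*, 12.6 for *Col5a2*, 10.3 for *Col5a1* and 7.81 for *Col3a1*. Not all fibrillar chains were so far apart, with *Col27a1* at 2.56, *Col5a3* at 1.99 and *Col11a2*, lowest in library 3, at 0.461. Among the basement membrane chains it was 3.40 for *Col18a1*, 3.18 for *Col15a1*, 2.36 for *Col4a1* and 2.31 for *Col4a2*, and under 1 for *Col4a3* (0.527) and *Col4a4* (0.498), as for *Col6a6* (0.0595) among the others. The median ratio was 9.05 for fibrillar, 2.04 for basement membrane and 1.77 for other collagens, beside 0.986 over all tested genes. This is 1 library, so the ratios carry no test. The part of its RNA quality and cell composition in these ratios was not tested.

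Levels of different genes were compared per length, as CPM per kb of exon. Over the 8 libraries apart from library 3, the mean was 56.1 CPM per kb for *Col3a1* (32.4 to 79.2) and 44.2 for *Col4a1* (38.1 to 49.0), ranges that overlap. *Col4a2* (23.8) and *Col6a1* (23.6) followed without a clear order between them, both below the lowest value of *Col4a1*. *Col4a5* (11.1) and *Col15a1* (10.4) came next, then *Col5a2* (8.79) and *Col1a2* (8.48), again with overlapping ranges. *Col1a1* was at 4.58 CPM per kb (2.36 to 8.68). This order depends on the length used: per longest transcript *Col3a1* (99.03 CPM per kb, 57.2 to 140) was above *Col4a1* (49.9) in all 9 libraries, and *Col1a2* (19.7) came above *Col15a1* and *Col4a5*. In library 3, per exon union, the order was *Col3a1* (435 CPM per kb), *Col1a2* (114), *Col5a2* (112), *Col1a1* (105) and *Col4a1* (103).

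Summed by class, fibrillar collagens were at 101 to 122 CPM per kb in the low-*Vdac2* libraries, at 52.9 to 71.9 in the high-*Vdac2* libraries and at 821 in library 3. Basement membrane collagens were at 80.5 to 94.8, 91.6 to 104 and 215 CPM per kb, and other collagens at 49.7 to 64.7, 45.3 to 56.9 and 180.5 CPM per kb. Fibrillar chains thus made up 41.1% to 43.5%, 27.3% to 33.0% and 67.5% of the summed collagen level, and basement membrane chains 32.0% to 38.4%, 44.7% to 47.6% and 17.6%. Between the labels the fibrillar share overlapped, at 31.9% to 67.5% in the labelled WT and 27.3% to 43.5% in the labelled KO libraries. *Col3a1* alone held 27.1% to 30.2%, 16.8% to 20.4% and 35.7%. Per longest transcript the fibrillar share was 50.7% to 53.0%, 35.5% to 41.9% and 73.9%, and the basement membrane share 25.3% to 30.8%, 37.6% to 40.8% and 12.9%, so which class was larger in the high-*Vdac2* libraries depends on the length.

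**Figure D4:**
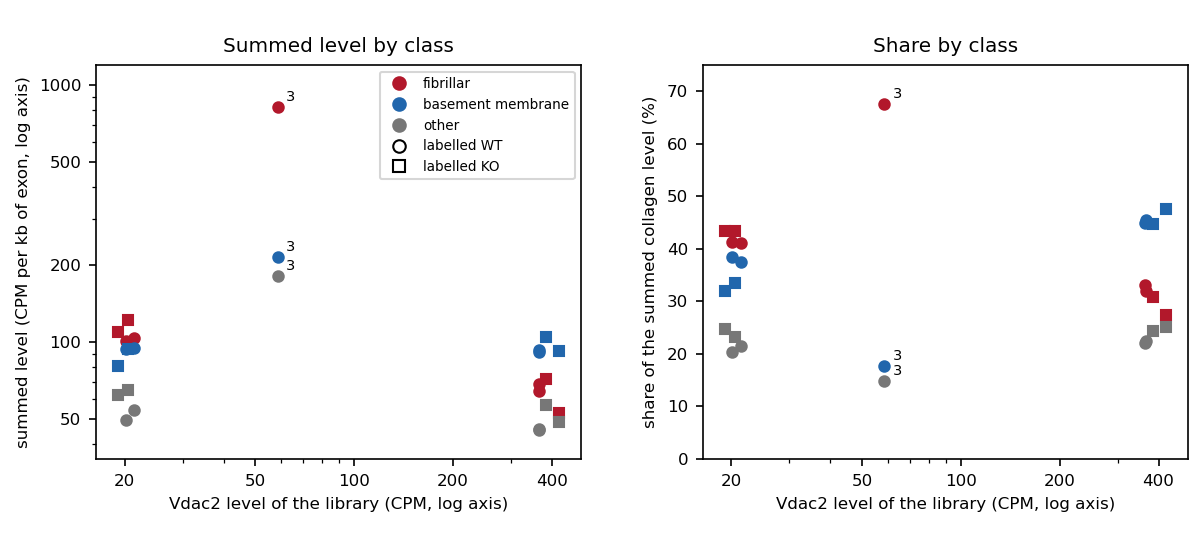
Summed collagen level by class (left, CPM per kb of exon, log axis) and share of the summed collagen level (right, %) against the *Vdac2* level of each library (CPM, log axis); circles are labelled WT, squares labelled KO, and 3 marks library 3. Fibrillar collagens (red) exceed basement membrane collagens (blue) in library 3 and in the 4 libraries near 20 CPM, and lie below them in the 4 libraries over 300 CPM, where the ranges of their shares overlap per longest transcript (35.5% to 41.9% and 37.6% to 40.8%).

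Chains that share a molecule differed in how steady their ratio was. *Col4a1* over *Col4a2*, per length, was 1.87 ± 0.0702 (SD, n = 9), from 1.76 to 1.99, with library 3 at 1.87. *Col1a1* over *Col1a2* was 0.404 to 0.703 in 8 libraries and 0.926 in library 3. *Col6a1* over *Col6a2* was 3.17 to 3.77 and 2.40 in library 3, and *Col6a3* over *Col6a1* 0.224 to 0.304 and 0.671. For *Col5a1* over *Col5a2*, library 3 (0.426) lay within the range of the other 8 (0.383 to 0.666). The same held for *Col4a3* over *Col4a4* (0.442, against 0.379 to 0.599). *Col3a1* over *Col1a2*, chains of types III and I that share no molecule, was 5.38 to 8.23 in the 8 libraries and 3.83 in library 3. This is a ratio of chain RNAs and not of the amounts of the 2 collagens. The absolute ratios depend on the length used, since the exon union counts every annotated exon.

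Genes that build, trim, cross-link, organise and bind collagen were counted from 6 lists in the same edgeR fit. None of their members was called between the labels. At most 2 of a list had an unadjusted p under 0.05, against 6.11% of all tested genes. The count of 2 was reached among 12 fibril regulators (16.7%), 11 basement membrane partners and 9 collagen receptors. Without library 3 the highest share was 6 of 12 fibril regulators (50%; *Dcn*, *Fbln1*, *Fmod*, *Lum*, *Thbs2* and *Tnxb*), against 11.8% of all tested genes. *Lum* was on the higher side in the labelled KO libraries (0.35) and the rest of them on the lower (-0.30 to -1.26). In that fit 6 of 11 resting fibroblast markers (*Dcn* and *Lum* among them) also had an unadjusted p under 0.05. So did 4 of 9 macrophage, 5 of 5 mesothelial and 3 of 11 endothelial markers. Among 20 tested chaperones and hydroxylases the median log2 fold change was -0.31, and 0.04 without library 3. *Serpinh1*, the collagen-specific chaperone HSP47, was at 956 CPM in library 3 and at 231 to 275 CPM in the others, and *P4hb*, a subunit of prolyl 4-hydroxylase, at 295 to 417 CPM in the low-*Vdac2* and 229 to 241 CPM in the high-*Vdac2* libraries. In this list 3 genes had the low-*Vdac2* libraries above (*P4hb*, *Ppib* and *P3h3*) and 1 below (*Colgalt2*), and 18 of 20 were highest in library 3. Over all tested genes, beside which these counts and those of the next lists are to be read, 7.16% had the low-*Vdac2* libraries above, 4.93% below, and 37.7% were highest in library 3.

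Of 8 tested genes for procollagen processing (median -0.49, and -0.05 without library 3), 4 had the low-*Vdac2* libraries above: *Pcolce* and *Pcolce2*, enhancers of the C-proteinase, *Bmp1*, that proteinase, and *Adamts2*, the N-proteinase. *Pcolce* was at 53.1, 33.1, 116, 32.6 and 50.002 CPM in libraries 1 to 5, then 36.8, 49.2, 29.6 and 51.4 CPM in 6 to 9. Of 6 cross-linking enzymes (median -1.32, and -0.08 without library 3), all were highest in library 3 (37.7% of all tested genes were), and 3 lysyl oxidases (*Lox*, *Loxl1* and *Loxl2*) had the low-*Vdac2* libraries above (7.16% of all). *Lox*, which cross-links types I and III, was at 11.8, 4.79, 645, 6.43 and 9.34 CPM and then at 2.36, 10.9, 2.03 and 14.3 CPM, so library 3 was far above all others.

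Regulators of fibril assembly (12 tested, median -0.35, and -0.19 without library 3) were split in library 3, where 6 were highest, against 37.7% of all tested genes. *Sparc*, a collagen-binding matricellular protein, was at 1067 CPM there and at 147 to 238 CPM elsewhere, while the small proteoglycan *Dcn* was at 454 CPM and 560 to 935 CPM. *Sparc* and *Bgn* had the low-*Vdac2* libraries above. Among 11 partners of type IV collagen in the basement membrane (median -0.10, and -0.08 without library 3), none had them above and 1, *Lama5*, below (7.16% and 4.93% of all tested genes). *Hspg2*, the proteoglycan perlecan, was at 496 CPM in library 3 and 108 to 236 CPM elsewhere, and *Lama2*, the muscle laminin chain, at 203 CPM and 268 to 364 CPM. Of 9 collagen receptors tested (median -0.43, and -0.05 without library 3), *Mrc2*, an endocytic receptor that clears collagen, and *Ddr1* had the low-*Vdac2* libraries above, and *Itgb1*, the integrin chain shared by the collagen-binding integrins, was at 1118 CPM in library 3 and 515 to 570 CPM elsewhere.

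Promoter windows of 250 bases before the start were found in RefSeq (GRCm38.p6) for 35 of the 44 collagens (38 windows), and 3 short motifs were searched on both strands. The GC box (GGGCGG) was in 57.9% of collagen windows and 32.7% of all 32851 windows, the CCAAT box (CCAAT) in 34.2% and 33.8%, and the TATA box (TATAA) in 18.4% and 22.8%. Of the 6 collagens whose low-*Vdac2* libraries were above, 4 had a window (*Col3a1*, *Col1a2*, *Col8a1* and *Col16a1*). *Col3a1* held TATAA and no GC box, *Col8a1* a GC box and neither of the others, so the 4 did not share a single motif. The TATAA of *Col3a1* lay farther from the start than the 100 bases shown for it above. A match says only that the letters are there.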

How the data were processed

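Total RNA of transmural left ventricle was sequenced after ribosomal RNA removal (stranded kit, short single-end reads). The deposited table holds raw counts of reads per Ensembl gene, not normalized by the authors. The submitters' processing notes name STAR 2.7.2c, featureCounts 1.6.3, DESeq2 and GRCm38. How strand and multi-mapped reads were handled, and the annotation release, are not given in the sources used here. Symbols were found for 52403 of 52636 genes, 0 columns were left out, and lengths and gene coordinates are from GENCODE M21 (GRCm38).

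Counts were analysed with edgeR 4.0.16 (R 4.3.3): filterByExpr on the labels, TMM, robust quasi-likelihood F-test, Benjamini-Hochberg adjustment over 16322 genes. The standard error was taken as |log2 fold change| divided by the root of F. CPM uses TMM-scaled library sizes. The script was tested on simulated data. Members and lists were chosen with earlier results of these data known. All 9 values are given for members with a mean of at least 10 CPM and for tested type IV chains. From the other lists, at most 4 genes with the highest mean CPM are described, and counted genes up to 5 are named after their values were seen. Counts within each label were added after the values were seen. Alternatives were DESeq2 1.42.0, RLE scaling, other filters, mitochondrial genes left out, raw-total CPM, other class limits, transcript length and leaving out each library.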

Additional observations from a re-analysis of the deposited data

Results flagged for a closer look

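All 18 values below are from library 3, labelled WT, the library farthest from the other labelled WT libraries. For each, its gap to the nearest of those libraries was measured as a share of their whole range, where 1 would mean that the other 4 coincide, and it passed Dixon's limit for 5 samples. Of 48 sets of libraries examined this way, chance alone flags about 1 in 20. The sets are different quantities in the same libraries and not independent draws, so the 18 flags cannot be weighed against that rate.

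Among fibrillar chains the share was 0.926 for *Col3a1*, 0.973 for *Col1a2*, 0.967 for *Col5a2*, 0.980 for *Col1a1* and 0.974 for *Col5a1*. In basement membranes it was 0.945 for *Col4a1*, 0.978 for *Col4a2*, 0.890 for *Col15a1* and 0.874 for *Col4a5*, and for *Col4a4*, where library 3 was the lowest, 0.851. Among the others it was 0.989 for *Col8a1*, 0.918 for *Col6a3*, 0.830 for *Col6a2*, 0.795 for *Col14a1*, 0.988 for *Col12a1* and 0.955 for *Col16a1*. The share of mitochondrially encoded counts (0.811, lowest) and the TMM scaling factor (0.839, highest) were flagged in the same library.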

How the results depend on the processing

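No collagen that was given an adjusted p was called under any alternative (DESeq2 gave none for 9 of the 33, those with the largest estimates among them), and 105 of 105 estimates of the 21 named collagens kept their sign under another tool, scaling or filter. Without library 3, 11 of the 21 changed sign. Leaving out each library in turn, the log2 fold change ran from -1.40 to 0.094 for *Col3a1*, -2.04 to 0.015 for *Col1a2*, -1.99 to 0.0012 for *Col5a2*, -2.82 to 0.11 for *Col1a1*, -0.37 to 0.024 for *Col5a3*, -0.47 to 0.24 for *Col15a1*, -0.23 to 0.034 for *Col4a5*, -0.21 to 0.027 for *Col4a4*, -0.25 to 0.093 for *Col4a3*, -0.091 to 0.18 for *Col4a6*, -2.002 to 0.31 for *Col8a1*, -0.46 to 0.21 for *Col6a3*, -0.041 to 0.27 for *Col6a2*, -3.61 to 0.70 for *Col12a1*, -1.20 to 0.054 for *Col16a1* and -0.34 to 0.13 for *Col6a6*, and, without a change of sign, 0.075 to 0.78 for *Col14a1*, -1.70 to -0.037 for *Col5a1*, -0.47 to -0.058 for *Col4a1*, -0.48 to -0.068 for *Col4a2* and 0.041 to 0.14 for *Col6a1*. The fibrillar median ran from -1.55 to 0.059. The number of genes called over all ran from 5 to 62, with 62 reached without library 3. It was 62 with DESeq2 and 0 with at least 10 counts in every library (875 at an unadjusted p under 0.05), and the cause was not tested. The 1 collagen with low-*Vdac2* libraries below became 0 with CPM of raw totals and 0 without the low-count filter. Those above were then 7 of 33 and 8 of 43, while the share of all tested genes moved from 7.16% to 11.3% and to 4.45% (below, from 4.93% to 2.66% and 2.37%). Per longest transcript, an alternative added for levels and class shares after the data were seen, the ratios were 0.272 for *Col1a1* over *Col1a2*, 2.05 for *Col4a1* over *Col4a2*, 0.390 for *Col5a1* over *Col5a2*, 2.14 for *Col6a1* over *Col6a2* and 4.73 for *Col3a1* over *Col1a2*. No paired analysis was possible because the labels share no replicate numbers. Counts under 3 in a library set the limit for the scarce chains.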
